A study of Mus musculus with 16 samples.

Results

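Transcripts of 10 immediate early transcription factor genes were measured in mouse chondrocytes with and without tumor necrosis factor α (TNFα) and with and without a NOTCH2 gain-of-function. The 10 genes were taken by name from 55414 counted genes, with no cutoff on their values. Earlier results of these data were known when they were chosen. They comprise the 4 Fos family genes (*Fos*, *Fosb*, *Fosl1* and *Fosl2*), the 3 Jun family genes (*Jun*, *Junb* and *Jund*), *Atf3*, and the zinc finger genes *Egr1* and *Egr2*. All 10 had enough counts to be tested in every comparison.

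The RNA-seq series holds 16 libraries, 4 in each of 4 groups. Chondrocyte-enriched cells were cultured from the limb epiphyses of newborn mice, 3 to 4 days old and pooled over both sexes. The mutant mice, and the cells called mutant here, were heterozygous for *Notch2*tm1.1Ecan, a global knock-in allele with a premature stop codon, whose NOTCH2 protein lacks the PEST domain that marks it for degradation. The wild-type mice were their littermates, called control here. Exposure of either genotype to vehicle or to TNFα lasted 6 h, at a TNFα concentration of 50 ng/ml. The labels give serum withdrawal before treatment for the TNFα groups only, whereas the paper describes TNFα and vehicle alike as given in serum-free conditions. Where the labels hold, TNFα and serum withdrawal cannot be told apart in a comparison of TNFα with vehicle. Comparisons of genotypes within a treatment do not involve serum. The labels call the libraries of a group biological replicates and do not say whether they came from separate litters or cultures, so p-values measure the spread between these libraries.

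AP-1 is a dimer of a Fos or ATF protein with a Jun protein, or of Jun proteins with each other, held together by a leucine zipper. Immediate early genes such as *Fos* and *Egr1* are transcribed within minutes of serum, growth factor or cytokine exposure without new protein synthesis, and their transcripts are usually short-lived. In cartilage, AP-1 is known for its part in chondrocyte growth and in the transcription of matrix-degrading enzymes. EGR proteins are zinc finger factors that bind a GC-rich site and share much of this early control.

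Counts on genes ranged from 3439726 in mutant TNFα replicate 4 to 44237300 in mutant vehicle replicate 4, and the other 14 libraries had 12552727 to 19925916. A pair of control libraries stood apart. On the first principal component, which held 84.9% of the variance and separated the treatments, control vehicle replicate 4 lay at -13.3 and the other 7 vehicle libraries between -47.4 and -45.3. The other 7 TNFα libraries had scores of 41.9 to 45.2, and control TNFα replicate 4 had 32.6. The nuclear factor κB (NF-κB) target *Icam1* was at 439 CPM (counts scaled to the library total) in control vehicle replicate 4, between the 34.4 to 40.4 CPM of the other control vehicle libraries and the 2312 to 2828 CPM of the control TNFα libraries. Results that rest on these libraries are given with and without both of them. All 14 chondrocyte markers examined were detected, with a summed level of 20392 to 55669 CPM over the 16 libraries, against 59.5 to 178 CPM for 10 macrophage markers. The sum of 8 fibroblast and perichondrium markers was 31032 to 42620 CPM. That sum was below the chondrocyte sum in control cells, overlapped it in mutant cells with vehicle and exceeded it in mutant cells with TNFα. *Notch2* itself was at 130 ± 19.7 CPM in control and 152 ± 13.5 CPM in mutant cells with vehicle (SD, n = 4), and at 156 ± 28 and 223 ± 15.1 CPM with TNFα (edgeR quasi-likelihood adjusted p = 0.283 and 0.0178). Gene counts do not separate the mutant allele from the normal one.

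Promoter sequence shows what lies next to the start sites of these genes. RefSeq windows on build GRCm38.p6 ran from 250 bases before a start site to 50 bases after it. They are reported for 8 of the 10 genes, with 5 windows for *Egr2* and 1 for each of the others. Windows of *Fosl1* and *Egr1* are not reported here. Below are a window of *Fos* and one of *Fosl2*, the Fos family genes that fell with TNFα, one of *Junb*, which rose, and one of *Egr2*, which rose and was higher in mutant cells. Capitals mark the motifs found.
Fos, chr12:85473640-85473939, plus strand: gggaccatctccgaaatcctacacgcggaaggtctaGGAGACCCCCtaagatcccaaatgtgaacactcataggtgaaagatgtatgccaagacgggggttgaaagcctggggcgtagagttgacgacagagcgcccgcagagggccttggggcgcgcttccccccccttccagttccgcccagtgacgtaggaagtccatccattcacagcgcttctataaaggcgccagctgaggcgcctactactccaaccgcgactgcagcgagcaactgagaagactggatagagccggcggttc
Fosl2, chr5:32136222-32136521, plus strand: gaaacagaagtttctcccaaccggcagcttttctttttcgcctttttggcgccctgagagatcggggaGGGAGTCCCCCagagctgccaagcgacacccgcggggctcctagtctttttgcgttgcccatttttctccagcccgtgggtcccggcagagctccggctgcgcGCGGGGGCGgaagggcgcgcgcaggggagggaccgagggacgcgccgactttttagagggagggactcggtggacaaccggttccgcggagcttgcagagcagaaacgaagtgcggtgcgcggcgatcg
Junb, chr8:84978699-84978998, minus strand: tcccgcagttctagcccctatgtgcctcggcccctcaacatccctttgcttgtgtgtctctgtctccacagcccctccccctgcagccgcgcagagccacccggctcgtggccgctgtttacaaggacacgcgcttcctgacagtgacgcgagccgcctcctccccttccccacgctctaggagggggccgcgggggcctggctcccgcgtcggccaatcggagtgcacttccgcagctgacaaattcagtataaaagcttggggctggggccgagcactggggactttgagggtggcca
Egr2, chr10:67537619-67537918, plus strand: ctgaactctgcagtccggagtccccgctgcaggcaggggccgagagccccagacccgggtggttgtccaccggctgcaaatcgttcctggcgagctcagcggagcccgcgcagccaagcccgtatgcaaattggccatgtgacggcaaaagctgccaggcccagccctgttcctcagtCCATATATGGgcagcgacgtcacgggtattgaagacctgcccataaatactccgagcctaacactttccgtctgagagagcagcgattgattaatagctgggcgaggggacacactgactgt

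Searched on both strands were the AP-1 site TGANTCA, the cyclic AMP response element TGACGTCA, the EGR site GCGNGGGCG, the CArG box bound by serum response factor (SRF), and the NF-κB site. The *Fos* window held an NF-κB match on the reverse strand, 214 bases before the start site. The *Fosl2* window held overlapping NF-κB matches on both strands, 182 and 181 bases before the start, and an EGR match 79 bases before it. The *Egr2* window printed held a CArG box 72 bases before the start. *Fosb* held an EGR match 50 bases and a reverse-strand NF-κB match 188 bases before its start. None of the 5 motifs was found in the windows of *Jun*, *Junb*, *Jund* or *Atf3*. Of 32851 RefSeq windows of the same length, 7.81% held the AP-1 site, 1.79% the cyclic AMP response element, 5.55% the EGR site, 1.63% a CArG box and 4.51% an NF-κB site. A match is a run of letters and not a measured site. Sites that depart from these letters or lie outside the window would be missed.

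Most of the 10 genes differed between TNFα and vehicle, in both directions. By the labels serum withdrawal goes with TNFα in these comparisons, and its part was not tested. In control cells *Junb*, *Atf3*, *Egr2* and *Jun* rose, and *Fos*, *Egr1*, *Fosl2* and *Jund* fell. In mutant cells the same 4 genes rose and *Fos*, *Egr1* and *Fosl2* fell. A gene was called when its adjusted p in edgeR's quasi-likelihood test was under 0.05, the adjustment (Benjamini-Hochberg) covering every gene tested. In control cells 4 of the 10 genes were called higher, against 23.3% of all 19338 genes tested, and 4 were called lower, against 20.9%. In mutant cells 4 were higher, against 22.6% of 19633 genes, and 3 were lower, against 21.9%. The median log2 fold change of the 10 genes was -0.05 in control and -0.04 in mutant cells, beside 0.04 and 0.03 over all genes. Without both control libraries numbered 4, the count in control cells was again 4 higher and 4 lower.

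**Figure D1:**
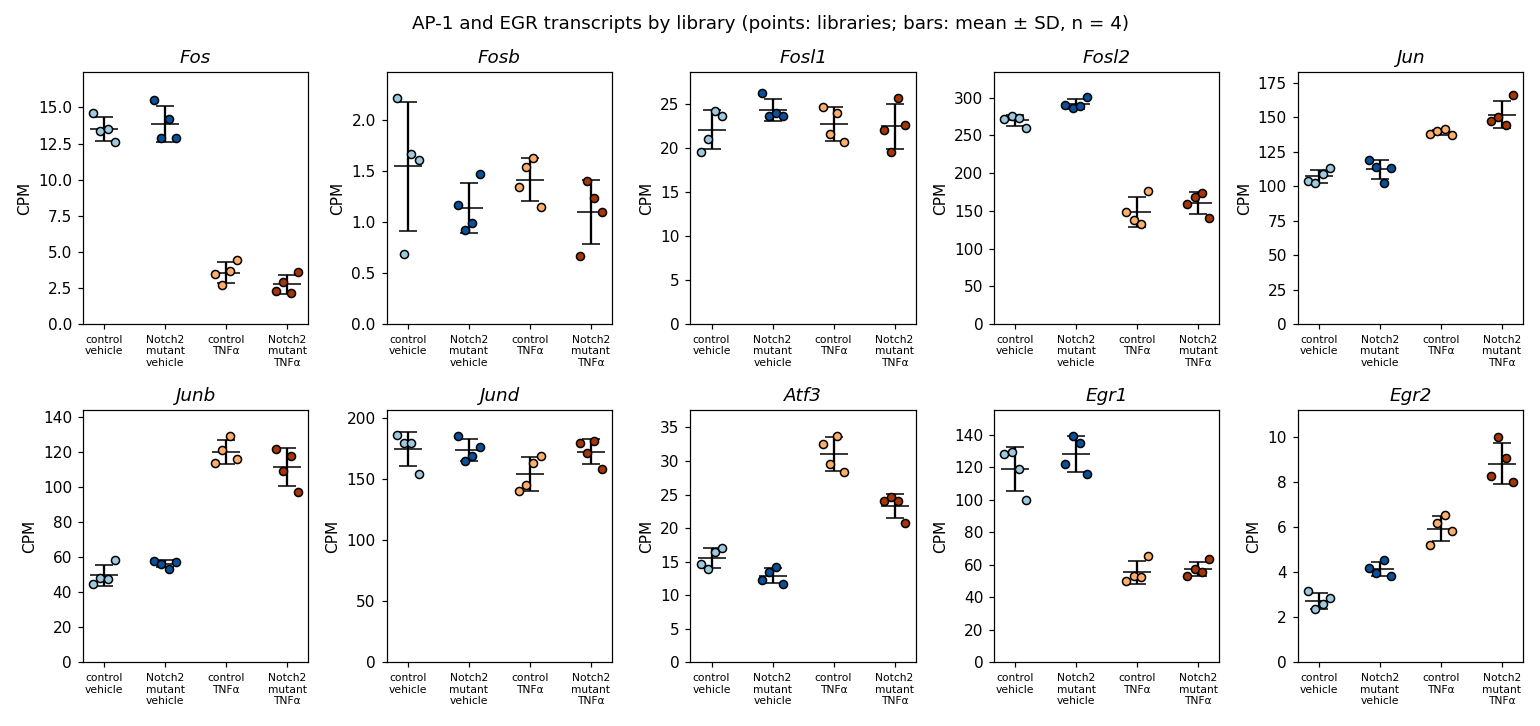
CPM (y axis, from 0) of each of the 10 genes in the 4 groups, with 1 point for each library and bars for the mean ± SD (n = 4). *Fos*, *Fosl2* and *Egr1* sit lower and *Junb*, *Jun*, *Atf3* and *Egr2* higher in every TNFα library than in any vehicle library of the same genotype, whereas *Fosb* and *Fosl1* overlap.

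*Fos* encodes the Fos family protein that pairs with Jun proteins soon after stimulation. In control cells with vehicle its 4 libraries were at 14.6, 13.4, 13.5 and 12.6 CPM, and with TNFα at 3.47, 2.69, 3.67 and 4.44 CPM. In mutant cells it was at 15.5, 12.9, 14.2 and 12.9 CPM with vehicle and at 2.32, 2.92, 2.16 and 3.59 CPM with TNFα. The treatments did not overlap in either genotype. The decrease was 3.75-fold in control cells (log2 fold change -1.91, SE 0.14, edgeR adjusted p = 2.98e-10) and 5.36-fold in mutant cells (-2.42, SE 0.15, edgeR adjusted p = 1.1e-13). *Fos* fell furthest of the 10 genes in both genotypes at 6 h. Earlier times were not sampled in this series, so an earlier rise or fall would not be seen. It lies on chromosome 12 at 85520658 to 85524047 on the plus strand (GRCm39, as are the gene positions that follow).

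*Fosl2* encodes FRA2, a Fos family protein without the strong activation domain of FOS, and lies on chromosome 5 at 32292707 to 32315186. Control libraries were at 272, 276, 273 and 260 CPM with vehicle and at 149, 138, 132 and 176 CPM with TNFα. The mutant libraries were at 290, 286, 289 and 301 CPM with vehicle and at 159, 169, 174 and 141 CPM with TNFα. Every TNFα library was below every vehicle library, and the log2 fold change was -0.85 in control (SE 0.07, edgeR adjusted p = 1.02e-07) and -0.85 in mutant cells (SE 0.06, edgeR adjusted p = 1.02e-11).

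*Fosl1*, which encodes FRA1, was called changed in neither genotype. It was at 19.6 to 24.2 CPM in control vehicle libraries and 20.7 to 24.7 CPM in control TNFα libraries, with a log2 fold change of 0.04 (95% interval -0.12 to 0.21, edgeR adjusted p = 0.728). In mutant cells it was at 23.6 to 26.2 CPM with vehicle and 19.5 to 25.7 CPM with TNFα (-0.11, interval -0.29 to 0.06, edgeR adjusted p = 0.336). *Fosb* was near the lower limit of these libraries, with 4 to 64 counts and 0.66 to 2.21 CPM over the 16. Its intervals for the TNFα effect, -0.73 to 0.43 in control and -0.68 to 0.53 in mutant cells on the log2 scale, leave changes of moderate size undetectable at this depth. *Fosl1* lies on chromosome 19 at 5497575 to 5505974 and overlaps *Ccdc85b* on the opposite strand (mean 38.4 CPM). The strand setting of the counting is not given in the sources used here, so reads of such pairs may be counted for the other gene or for neither.

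*Junb*, a Jun family gene whose protein activates more weakly than JUN at many AP-1 sites, had the highest rise of the 10 genes in control cells. It was at 44.6, 48.1, 47.6 and 58.3 CPM in control vehicle libraries and at 114, 121, 129 and 116 CPM in control TNFα libraries. The mutant libraries were at 57.6, 56.2, 53.3 and 57.4 CPM with vehicle and at 122, 109, 118 and 97.1 CPM with TNFα. The rise was 2.42-fold in control (log2 fold change 1.28, SE 0.08, edgeR adjusted p = 2.3e-09) and 2.01-fold in mutant cells (1.00, SE 0.07, edgeR adjusted p = 2.03e-12). Control vehicle replicate 4 had the highest *Junb* of its group. *Junb* lies on chromosome 8 at 85701113 to 85705359 and overlaps *Prdx2* on the opposite strand (mean 159 CPM).

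*Jun*, on chromosome 4 at 94937271 to 94940459, encodes the JUN protein that pairs with all Fos family members. It was at 104, 102, 109 and 113 CPM in control vehicle libraries and rose to 138, 140, 141 and 137 CPM with TNFα. In mutant cells it went from 119, 114, 102 and 113 CPM to 147, 150, 144 and 166 CPM. The groups did not overlap, although the rise was small: 1.31-fold in control (log2 fold change 0.39, SE 0.05, edgeR adjusted p = 1.8e-06) and 1.35-fold in mutant cells (0.43, SE 0.07, edgeR adjusted p = 3.27e-06). *Jund*, which encodes a Jun protein made in many resting cells, was at 154 to 186 CPM in control vehicle libraries and 140 to 169 CPM in control TNFα libraries, and the groups overlapped. Its decrease in control cells (log2 fold change -0.17, SE 0.06, edgeR adjusted p = 0.0316) held in 3 of the 8 fits that left out 1 library. Without both control libraries numbered 4 it was -0.27 (edgeR adjusted p = 2.39e-05). In mutant cells *Jund* was at 165 to 185 CPM with vehicle and 158 to 181 CPM with TNFα (log2 fold change -0.0024, 95% interval -0.12 to 0.12, edgeR adjusted p = 0.981).

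*Atf3* encodes a stress-induced factor of the ATF family that can repress or, with Jun proteins, activate transcription. It lies on chromosome 1 at 190902493 to 190950241. Control libraries were at 14.6, 13.9, 16.5 and 17.1 CPM with vehicle and at 32.5, 29.6, 33.7 and 28.4 CPM with TNFα. The mutant libraries were at 12.3, 13.4, 14.2 and 11.7 CPM with vehicle and at 24.0, 24.6, 24.0 and 20.7 CPM with TNFα. The rise was 2.00-fold in control (log2 fold change 1.00, SE 0.09, edgeR adjusted p = 3.46e-09) and 1.85-fold in mutant cells (0.89, SE 0.09, edgeR adjusted p = 8.59e-09).

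The EGR genes moved in opposite directions. *Egr1* was at 128, 129, 119 and 100 CPM in control vehicle libraries and at 49.9, 53.3, 52.6 and 65.5 CPM with TNFα. In mutant cells it was at 122, 139, 135 and 116 CPM with vehicle and at 53.1, 57.2, 55.7 and 63.2 CPM with TNFα. It fell 2.14-fold in control (log2 fold change -1.10, SE 0.10, edgeR adjusted p = 5.3e-06) and 2.26-fold in mutant cells (-1.17, SE 0.07, edgeR adjusted p = 1.53e-13), with no overlap. *Egr2*, on chromosome 10 at 67371305 to 67378018, is better known for its part in nerve myelination and in lymphoid and myeloid cells, and its level was low. It was at 3.15, 2.36, 2.57 and 2.86 CPM in control vehicle libraries and at 5.20, 6.20, 6.53 and 5.85 CPM with TNFα. In mutant cells it was at 4.20, 3.95, 4.56 and 3.84 CPM with vehicle and at 8.27, 10, 9.07 and 8 CPM with TNFα. The log2 fold change was 1.12 in control (SE 0.16, edgeR adjusted p = 5.11e-06) and 1.13 in mutant cells (SE 0.14, edgeR adjusted p = 9.21e-08).

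The control libraries numbered 4 lay between the treatments for many of these genes. Control vehicle replicate 4 was outside the range of the other 3 control vehicle libraries, on the side of the TNFα libraries, for *Fos*, *Fosl2*, *Jun*, *Junb*, *Jund*, *Atf3* and *Egr1*. *Jund*, at 154 CPM against 179 to 186 CPM in the other 3, lay within the range of the TNFα libraries. Without both libraries the log2 fold change in control cells was -2.08 for *Fos*, -0.96 for *Fosl2*, -1.26 for *Egr1*, 1.38 for *Junb* and 1.09 for *Atf3*, each larger in size than with them.

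**Figure D2:**
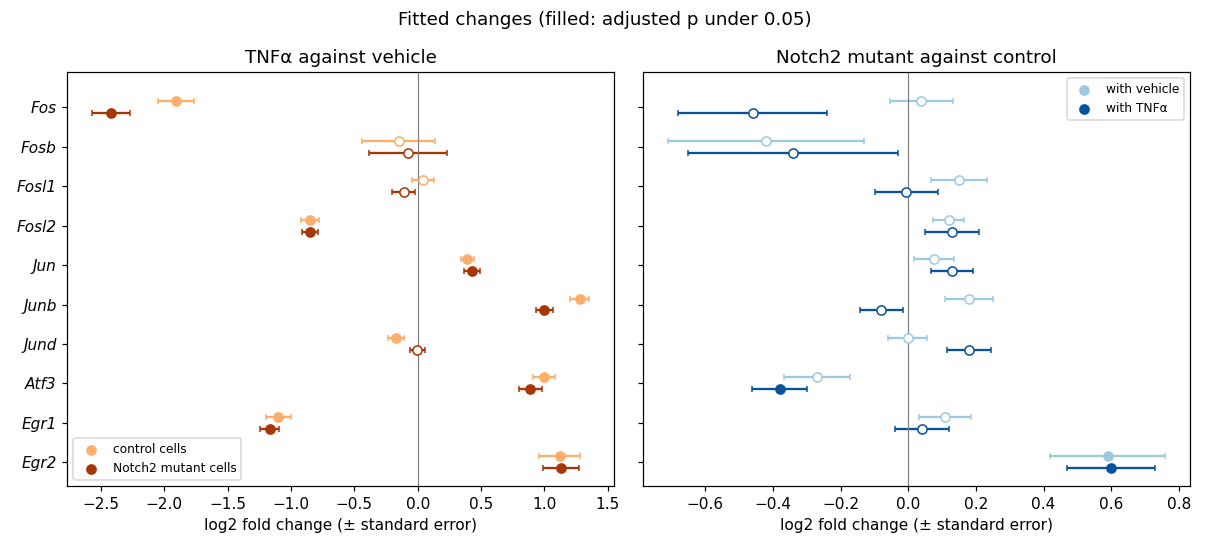
Log2 fold change ± standard error (x axis) of each gene, for TNFα against vehicle in control and mutant cells (left) and for mutant against control cells with vehicle and with TNFα (right), where filled points have an adjusted p under 0.05. The TNFα effects span -2.42 to 1.28, and *Egr2* and *Atf3* are the filled points among the genotype effects.

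Per gene length, the order of the transcripts changed with TNFα. In TPM, a level scaled to gene length and to the library total, here on union exon length, *Jund* was highest in all 4 groups, with group means of 488 to 552 TPM. In control cells with vehicle it was followed by *Jun* at 177 ± 9.11 TPM, *Egr1* at 140 ± 15.1 TPM, *Fosl2* at 137 ± 3.18 TPM, *Junb* at 110 ± 13.6 TPM and *Fosl1* at 57.3 ± 5.95 TPM (SD, n = 4). *Atf3* was at 33.5 ± 3.5 TPM, *Fos* at 30.2 ± 1.7 TPM, *Egr2* at 4.23 ± 0.515 TPM and *Fosb* at 1.3 ± 0.53 TPM. Libraries of *Egr1* and *Fosl2* overlapped in level, as did those of *Atf3* and *Fos*, and the other neighbours in the order were separated.

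In control cells with TNFα, *Junb* at 265 ± 13.6 TPM stood above *Jun* at 230 ± 5.37 TPM, without overlap. In mutant cells with TNFα the pair overlapped, at 248 ± 22.4 and 252 ± 19.3 TPM. *Fosl2*, *Atf3*, *Egr1* and *Fosl1* then lay between 50.5 and 81.7 TPM as group means and overlapped with their neighbours in both genotypes. *Fos* dropped below *Egr2*, at 7.96 ± 1.51 against 9.21 ± 0.854 TPM in control cells, which overlapped, and at 6.18 ± 1.53 against 13.7 ± 1.28 TPM in mutant cells, which did not. With the length of the longest transcript in place of union exons, *Fosl2* moved to second place with vehicle, and *Junb* stood above *Jun* with TNFα in both genotypes without overlap (248 ± 12.9 against 163 ± 3.81 TPM in control and 232 ± 20.4 against 179 ± 14.1 TPM in mutant cells). The order of *Jun*, *Junb* and *Fosl2* therefore depends on the length used.

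The make-up of the AP-1 families shifted accordingly. The Fos family summed to 226 ± 5.64 TPM in control cells with vehicle and 144 ± 8.36 TPM with TNFα, and to 243 ± 4.36 and 147 ± 9.83 TPM in mutant cells. *Fos* made up 13.4% ± 0.863 of that sum with vehicle and 5.53% ± 0.849 with TNFα in control cells, and 12.8% ± 0.886 and 4.23% ± 1.2 in mutant cells. The share of *Fosl1* went from 25.4% ± 2.23 to 41.2% ± 4.33 in control cells while its own level was not called changed. The Jun family summed to 839 ± 22.1 TPM with vehicle and 983 ± 39.5 TPM with TNFα in control cells, and to 858 ± 30.2 and 1047 ± 33.9 TPM in mutant cells. *Junb* went from 13.1% ± 2 to 27% ± 1.21 of the Jun family in control cells and from 14.5% ± 0.359 to 23.6% ± 1.43 in mutant cells. For these sums and shares, the libraries of vehicle and TNFα did not overlap within a genotype. They are shares of transcript on union exon length, not of protein or of dimers, and were not computed on the longest transcript. They depend on the length used. In control cells with vehicle, *Fosl2* was at 145 TPM on the longest transcript against 137 TPM, and *Fosl1* at 44.3 against 57.3 TPM.

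**Figure D3:**
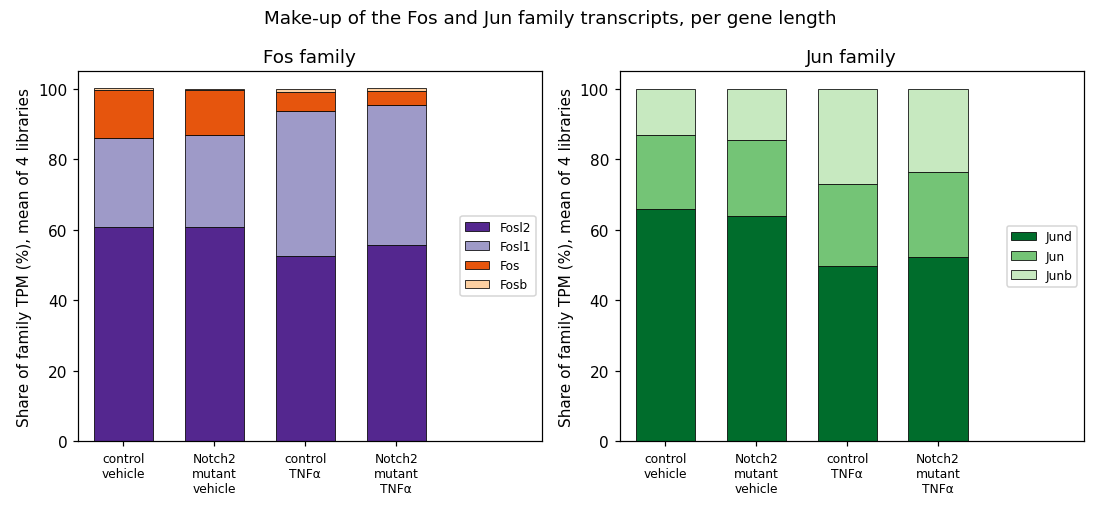
Share of the Fos family (left) and Jun family (right) TPM held by each gene, in percent (y axis), as the mean of 4 libraries in each group. The *Fos* segment shrinks from 13.4% to 5.53% and the *Junb* segment grows from 13.1% to 27% with TNFα in control cells.

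Fewer of these genes were called between genotypes than between TNFα and vehicle. The same held over all genes tested, with 2048 and 1916 called between genotypes against 8543 and 8746 with TNFα. With vehicle, 1 of the 10 genes was called higher in mutant cells, *Egr2*, against 6.19% of 19432 genes tested, and none was called lower in edgeR, against 4.35%. *Atf3* was the 1 gene lower at an unadjusted p under 0.05, and DESeq2 called 1 of the 10 genes in either direction. With TNFα, *Egr2* was higher, against 5.63% of 19227 genes called higher, and *Atf3* was lower, against 4.33% called lower. The comparisons share libraries with the TNFα comparisons above and are not independent of them.

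*Egr2* was 1.51-fold higher in mutant than in control cells with vehicle (4.14 ± 0.321 against 2.74 ± 0.343 CPM, log2 fold change 0.59, SE 0.17, edgeR adjusted p = 0.0237). With TNFα it was also 1.51-fold higher (8.83 ± 0.898 against 5.95 ± 0.568 CPM, 0.60, SE 0.13, edgeR adjusted p = 0.00284). The 4 mutant libraries were above the 4 control libraries in both treatments. With vehicle the call was lost without control replicate 2, control replicate 3 or mutant replicate 3 (edgeR adjusted p = 0.0728, 0.0644 and 0.0841), with a log2 fold change of 0.53 to 0.56. With TNFα it held without any 1 library (0.52 to 0.64). Macrophage markers moved the same way. Of 10 such markers 7 were called higher in mutant cells with vehicle and 9 with TNFα, and their summed level was 114 to 133 against 59.5 to 66 CPM with vehicle and 156 to 178 against 75 to 89.5 CPM with TNFα. No macrophage marker was at 0 in every library of a group, and their part in the *Egr2* difference was not tested. In these bulk samples more cells of a type and more RNA per cell cannot be told apart.

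*Atf3* was 1.30-fold lower in mutant than in control cells with TNFα (23.3 ± 1.77 against 31.1 ± 2.49 CPM, log2 fold change -0.38, SE 0.08, edgeR adjusted p = 0.00198), with no overlap of libraries. The call held without any 1 library, with a log2 fold change between -0.42 and -0.35. With vehicle the values were 12.9 ± 1.13 against 15.5 ± 1.54 CPM and the libraries overlapped (-0.27, 95% interval -0.46 to -0.07, edgeR adjusted p = 0.093). All 14 chondrocyte markers were called lower in mutant cells in both treatments, with summed levels of 32350 to 37584 against 51872 to 55669 CPM with vehicle and 20392 to 23271 against 37618 to 44597 CPM with TNFα. Without both control libraries numbered 4, 13 of the 14 were called lower with vehicle and 14 with TNFα. Their part in the *Atf3* difference was not tested.

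The other 8 genes were called in neither genotype comparison. The intervals, which are approximate and not adjusted over genes, show roughly what could be missed. For *Jun*, *Jund*, *Fosl1*, *Fosl2*, *Junb* and *Egr1* the 95% interval of each log2 difference lay between -0.21 and 0.32. For *Fos* it was -0.15 to 0.22 with vehicle and -0.88 to -0.04 with TNFα (edgeR adjusted p = 0.212), and for *Fosb* it reached from -1.0 to 0.26. Intervals wholly above 0 were those of *Fosl2* (0.026 to 0.21) and *Junb* (0.043 to 0.32) with vehicle. With TNFα, those of *Jun* (0.012 to 0.25) and *Jund* (0.048 to 0.31) were also above 0. Their edgeR adjusted p was 0.122, 0.119, 0.208 and 0.0944 in that order. Libraries of the genotypes did not overlap for *Fosl2* with vehicle or *Jun* with TNFα, although neither was called. The share of all genes that separate in this way was not computed, here or for the other separations given. Leaving out both control libraries numbered 4 added *Junb* to the genes called higher with vehicle (log2 fold change 0.26, edgeR adjusted p = 0.00428), and *Fosl2* and *Jund* with TNFα (0.22 and 0.23, edgeR adjusted p = 0.026 and 0.0171).

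Whether the TNFα effect differed between genotypes was tested as an interaction over all 16 libraries. None of the 10 genes was called, against 0.474% of 21321 genes, DESeq2 called none either, and 2 had an unadjusted p under 0.05 in edgeR's quasi-likelihood test. These were *Junb*, whose rise was smaller in mutant cells (log2 difference -0.27, SE 0.10, edgeR adjusted p = 0.342), and *Fos*, whose fall was larger (-0.51, SE 0.21, edgeR adjusted p = 0.436). Without control vehicle replicate 4 the *Junb* difference was -0.37 (edgeR adjusted p = 0.0482), and without both control libraries numbered 4 it was -0.37 (0.0558). The interaction intervals of *Jun*, *Fosl2* and *Egr1* lay between -0.31 and 0.22.

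Other genes of the pathway are described by lists. Over all genes tested, 23.3% were called higher and 20.9% lower with TNFα in control cells, and 22.6% and 21.9% in mutant cells. Between genotypes, 6.19% were higher and 4.35% lower in mutant cells with vehicle, and 5.63% and 4.33% with TNFα. The list counts were not tested against these shares. Of 22 other immediate early genes, 7 rose and 8 fell with TNFα in each genotype, with a median log2 fold change of -0.07 and -0.10. *Btg2*, an antiproliferative gene, had a log2 fold change of 0.97 in control and 0.90 in mutant cells (edgeR adjusted p = 1.16e-08 and 1.01e-11). *Ccn1*, which encodes a secreted matricellular protein, had -2.60 and -3.09 (edgeR adjusted p = 0.0019 and 3.51e-24). *Egr3*, named after its values were seen because it is a close relative of *Egr2*, had 1.36 and 2.08 (edgeR adjusted p = 9.26e-06 and 1.09e-09).

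Serum response factor and its cofactors drive *Fos* and *Egr1* as well as actin cytoskeleton genes. Of 14 such targets, 13 fell in control and 13 in mutant cells, with medians of -1.21 and -1.26. *Filip1l*, named after its values were seen, was the gene that did not fall, with a log2 fold change of 0.18 in control cells, where it was not called, and 0.37 in mutant cells. Leaving out both control libraries numbered 4, it was called higher in control cells too (0.27, edgeR adjusted p = 0.00754). *Ccn2*, which encodes connective tissue growth factor, had -2.79 and -3.57 (edgeR adjusted p = 0.00225 and 4.51e-25). In control cells it had -3.41 when both libraries numbered 4 were left out. With vehicle, 12 of the 14 were higher in mutant cells, among them the smooth muscle type genes *Tagln*, *Cnn1* and *Myl9*, with log2 fold changes of 1.04, 1.01 and 1.04. With TNFα, 6 of the 14 were called higher in mutant cells and 0 lower, and *Acta2* was higher by 1.01. Without both control libraries numbered 4, 10 were called higher and 1 lower with TNFα. *Fos* and *Egr1* were not called in either comparison of genotypes.

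Of 15 MAP kinase phosphatases and ERK feedback inhibitors, 2 rose and 6 fell in each genotype. Beside the genes given by rule, the named members of this and the following lists were added after their values were seen. The genes that rose were *Dusp16* and *Spred3*, and *Dusp1*, *Dusp5*, *Dusp8*, *Dusp14*, *Spry1* and *Spry4* fell. The JNK and p38 phosphatase gene *Dusp16* had a log2 fold change of 0.35 in control and 0.57 in mutant cells, and *Dusp14* had -1.06 and -1.47. Of 17 MAP kinase and ternary complex factor genes, 5 rose and 5 fell in control cells and 5 rose and 6 fell in mutant cells. The kinase genes *Mapk8* and *Mapk14*, which encode JNK1 and p38α, fell in both, with log2 fold changes of -0.25 and -0.49 in control cells, and *Mapk3*, which encodes ERK1, rose by 0.28. *Map3k8*, which encodes the TPL2 kinase upstream of ERK, had 1.69 and 2.13, and *Map2k3*, a kinase of p38, had -0.58 and -0.69. None of the 17 was called between genotypes in edgeR's quasi-likelihood test with either treatment, and 2 had an unadjusted p under 0.05 with vehicle and 0 with TNFα.

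Of 11 other dimer partners, 6 rose and 1 fell with TNFα in each genotype. *Jdp2*, whose protein represses AP-1 sites, had a log2 fold change of -0.52 in control and -0.55 in mutant cells. Of 14 genes known as AP-1 targets, 10 rose and 3 fell in control cells and 9 rose and 3 fell in mutant cells, with medians of 1.04 and 1.19. The collagenase and stromelysin genes *Mmp13* and *Mmp3*, which degrade cartilage matrix, had log2 fold changes of 2.39 and 3.72 in control and 3.19 and 4.01 in mutant cells. The chemokine gene *Ccl2* had 4.39 (SE 1.13) and 6.17 (SE 0.12). The values in control cells rest on the libraries numbered 4, without which they were 6.49 for *Ccl2* (SE 0.06) and 4.76 for *Mmp3* (SE 0.06). In the same list, *Plaur*, the urokinase receptor gene, had -1.21 and -1.37. The others that fell were *Plau* and *Hbegf*. *Il6* was higher in mutant cells with TNFα (1.65 ± 0.625 against 0.769 ± 0.285 CPM, log2 fold change 1.11, SE 0.34, edgeR adjusted p = 0.0359). All 10 early NF-κB targets rose in both genotypes, with medians of 3.68 and 4.84, and many AP-1 targets also answer to NF-κB. Of 7 heat shock genes 1 rose and 4 fell in control cells and 2 rose and 4 fell in mutant cells, *Hspa1a* having 0.52 and 0.49 and *Hsph1* having -1.0 and -1.08. Without both control libraries numbered 4, the median in control cells was -1.38 for the serum response factor targets, 1.47 for the AP-1 targets and 4.78 for the NF-κB targets, and no heat shock gene was called higher.

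**Figure D4:**
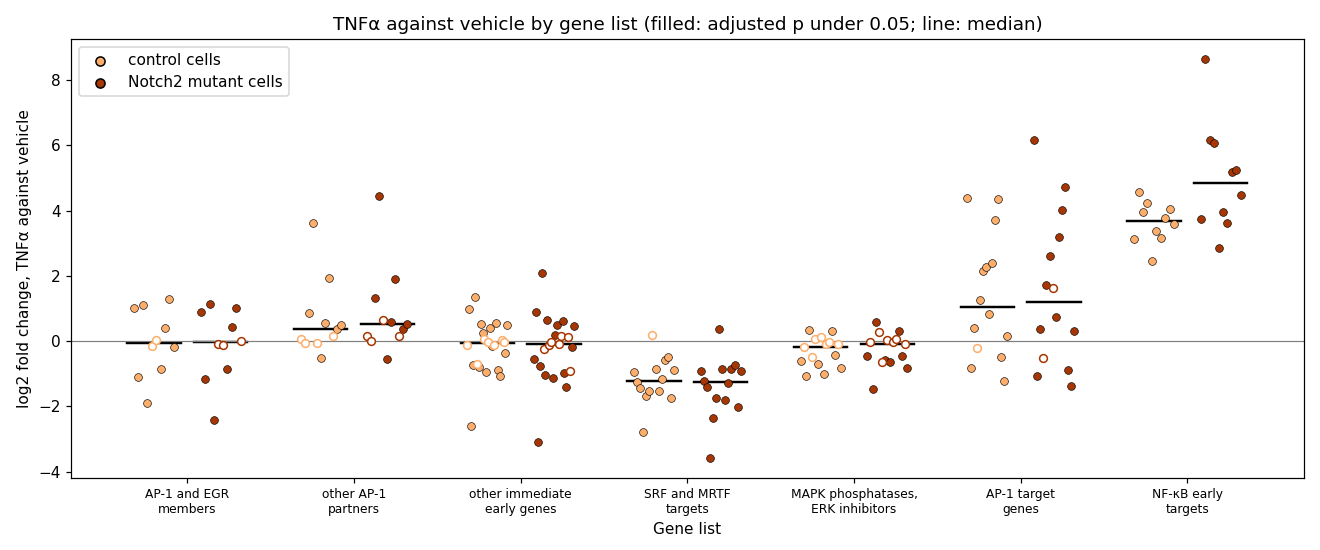
Log2 fold change of TNFα against vehicle (y axis) for each gene of 7 lists (x axis) in control and mutant cells, where filled points have an adjusted p under 0.05 and lines mark medians. The 10 AP-1 and EGR genes spread on both sides of 0, SRF and MRTF targets lie mostly below it and all 10 NF-κB targets above it.

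Within groups, the genes whose deviations from the group mean were most like those of *Fos* over 14 libraries were *Acat2*, *Fen1* and *Tubb4b* (Pearson r = 0.91 each, log2 CPM, the pair of control libraries numbered 4 left out). For *Egr1* they were *Kyat3*, *Cd59a* and *Dtna* (0.83, 0.82 and 0.81). For *Fosl1* they were *Bbs1*, *L3mbtl3* and *Ik* (0.83 each), and for *Atf3* they were *Nsf*, *Aggf1* and *Zfp672* (0.98, 0.90 and 0.87). These are the highest of 10939 genes compared and carry no test. Over all 16 libraries the highest genes were others for *Fos*, *Egr1* and *Atf3*, and *L3mbtl3* and *Ik* were again among the 3 for *Fosl1*.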

How the data were processed

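Per the labels, the authors made stranded mRNA libraries and deposited HTSeq read counts per Ensembl gene, 1 file for each library. The submitters' processing notes name HISAT2 2.1.0, SAMtools 1.9, Picard and DESeq2 with build GRCm38, whereas the study's methods name GRCm39, and the strand setting is not given in the sources used here. Summary rows that name no gene (8.81 to 12.1% of reads counted) were left out. The counts were fitted in edgeR 4.0.16 (quasi-likelihood, robust, TMM normalization), for genes with at least 10 counts summed over the libraries compared and with Benjamini-Hochberg adjustment over all of them. The fits were tested on simulated data. Levels are CPM on TMM library sizes, and TPM from GENCODE vM39 exon lengths (GRCm39). Likeness used log2(CPM + 0.5) for genes with a mean of at least 5 CPM. Within groups, pairs of libraries differed beyond counting noise (chi-square per degree of freedom 2.14 to 16), so all 16 were used.

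The 10 genes and all lists were chosen with earlier results of these data known. By rule, all 10 genes are described, with, from each other list, the largest rise and fall in control cells among called genes with a mean of at least 5 CPM, and genes called between genotypes whose log2 fold change was 1 or more in size. Some genes that the rule names are not reported here. Of the cell type marker lists, the fibroblast and perichondrium, endothelial and skeletal muscle lists had 4 of 8, 3 of 6 and 4 of 8 genes higher in mutant cells with vehicle, and 2 of the fibroblast and perichondrium genes, *Dcn* and *Lum*, were lower. Alternatives tried were DESeq2, other scalings, filters and thresholds, a fit to all 16 libraries, a replicate block, leaving out single libraries, and leaving out both control libraries numbered 4.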

Additional observations from a re-analysis of the deposited data

Results flagged for a closer look

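In 40 groups of 4 libraries (10 genes in 4 groups), 2 had a library far from the other 3, measured as its gap to the nearest library over the whole range of the group, and chance flags about 1 group in 20. *Fosl1* in mutant vehicle replicate 1 was at 26.2 CPM, with the other 3 libraries at 23.6 to 24 CPM. *Atf3* in mutant TNFα replicate 4, the library with the fewest counts, was at 20.7 CPM, with the other 3 at 24 to 24.6 CPM.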

How the results depend on the processing

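Of the 10 genes, the number called with TNFα was 8 in control and 7 in mutant cells, and it fell to 5 and 4 when a log2 fold change of at least 1 was also required. The genotype counts of 1 with vehicle and 2 with TNFα fell to 0 and 0 under that rule. With vehicle the count was 2 at an adjusted p under 0.1, 2 without both control libraries numbered 4, and 0 to 2 over the fits that left out 1 library. With TNFα it was 3 at an adjusted p under 0.1 (*Jund* added, 0.0944, edgeR), 4 without both of those libraries and 2 to 4 over the fits that left out 1. The interaction count of 0 became 1 without control vehicle replicate 4, a range of 0 to 1. The causes were not tested, beyond what a stricter rule or fewer samples bring by construction.

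Over all genes, requiring a log2 fold change of at least 1 left 2279 and 2721 calls with TNFα and 244 and 273 between genotypes. Without that rule they were 8543 of 19338 and 8746 of 19633 genes tested, and 2048 of 19432 and 1916 of 19227. With vehicle the genotype count over all genes was 2733 at an adjusted p under 0.1 and 1980 without both control libraries numbered 4. Leaving out 1 library gave 1578 to 2666. With TNFα these counts were 2498, 2054 and 1458 to 2054. The interaction, with 101 genes, had 174 by DESeq2, 266 without a filter, 66 without robust dispersion, and 51 to 157 when 1 library was left out.

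Same-numbered libraries showed no steady likeness: their deviations had correlations of -0.241 to 0.225. With 4 libraries in a group, these values cannot settle whether the numbers mark pairs. A replicate block gave 7, 7, 1, 2 and 0 genes in the 5 comparisons, losing the *Jund* call in control cells (adjusted p = 0.0808, edgeR), which was also lost without robust dispersion (0.0709), and turned values near 0 for *Fosb* with TNFα in mutant cells (0.016) and *Jund* between genotypes with vehicle (0.0018).

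Log2 values near 0 that were never called also changed sign. By edgeR's own filter *Jund* with TNFα in mutant cells was 0.018 and *Fosl1* between genotypes with TNFα 0.0056. Without a filter the interactions of *Fosl2* and *Egr2* were -0.0074 and -0.002. Without both control libraries numbered 4 *Fos* between genotypes with vehicle was -0.011, and the interactions of *Fosb*, *Egr1* and *Egr2* were -0.028, 0.094 and -0.012. Leaving out 1 library gave, with TNFα in control cells, *Fosb* -0.37 to 0.062 and *Fosl1* -0.025 to 0.086, and in mutant cells *Fosb* -0.26 to 0.14 and *Jund* -0.027 to 0.042. Between genotypes it gave *Fos* -0.018 to 0.075 and *Jund* -0.065 to 0.026 with vehicle, and *Fosl1* -0.10 to 0.059 and *Egr1* -0.00046 to 0.13 with TNFα. For the interaction it gave *Fosb* -0.16 to 0.30, *Fosl2* -0.048 to 0.096, *Jun* -0.0026 to 0.082, *Egr1* -0.12 to 0.024 and *Egr2* -0.078 to 0.071. Depth limits the genes of lowest count most, *Fosb* in all groups, *Egr2* with vehicle and *Fos* with TNFα, which had 13 counts in mutant TNFα replicate 4.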
